A study of Drosophila melanogaster with 9 samples.

Results

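RNA recovered with anti-FLAG antibody from Drosophila ovaries carrying tagged Larp was set against RNA recovered with mouse IgG, to ask which transcripts exceeded the background of the procedure and which fell under it. The libraries were chosen by their labels and numbered 6 of the 9 in the series: 3 anti-FLAG IP libraries and 3 IgG control libraries. All 6 came from ovaries of the genotype larp::GFP::FLAG, dissected 1 to 3 days after eclosion, so the IgG control carried the same tagged protein and lacked only the antibody against the tag. Each anti-FLAG IP library was paired with the IgG control library of its own number. The labels do not say whether the replicates came from separate flies, so p-values measure only the spread between these libraries.

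Larp is a La-related protein of the fly, and LARP1 is its relative in mammals. In mammals LARP1 binds mRNAs that begin with a run of pyrimidines next to the cap, the TOP mRNAs, which encode ribosomal proteins and factors of translation, and it acts downstream of the growth regulator TOR. In RNA immunoprecipitation an antibody pulls a tagged protein out of lysate with the RNA held in its complexes, and a non-specific IgG shows how much of each RNA sticks without it.

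The anti-FLAG IP libraries held 12767580, 11396367 and 13840805 counts and the IgG control libraries 14105298, 17571309 and 11316201. Values per gene are normalised counts, meaning CPM values (counts relative to the size of the library) with TMM factors, which set libraries to a common level for most genes. The scaling factors were 0.608 to 0.898 in anti-FLAG IP and 1.34 to 1.37 in IgG control. On total counts alone the median gene lay at -0.82 on the log2 scale, against 0.04 after TMM, so every direction below is relative to the bulk of transcripts. Ovarian identity was plain in both groups. The 6 germline markers matched by symbol, osk and ovo among them, summed to 2249, 2066 and 2424 normalised counts in anti-FLAG IP and 2092, 2400 and 2619 in IgG control, and none was called. The planned marker nos carries the symbol nanos here and is not in this sum. Named after its values were seen, nanos changed by -0.70 on the log2 scale and was lower in every pair, without a call (edgeR adjusted p = 0.153). The 8 follicle cell markers summed to 9657, 15860.3 and 12184 in anti-FLAG IP and 11283, 13114 and 12024 in IgG control, also without a call. Most of this sum came from Yp1, Yp2, Yp3, Vm26Aa and Cp36, while slbo had at most 43 counts in any of the 6 libraries. Markers of neurons, gut, hemocytes and testis summed to at most 15.3 in any of the 6 libraries, and the gut marker LManIV and the hemocyte marker He were at 0 in all of them. Other tissue was present too. Muscle sheath markers summed to 130, 197 and 370 in anti-FLAG IP and 641, 247 and 537 in IgG control. Of 6 fat body markers, Lsp1alpha, Fbp1 and Fbp2 were at 0 in all 6 libraries, but the whole list, apolpp and Lsp2 included, summed to 156, 119 and 19.2 in anti-FLAG IP and 578, 156 and 40.8 in IgG control.

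Transcripts of cytoplasmic ribosomal proteins, of most eIF3 subunits and of some other translation factors exceeded the IgG background, and few genes fell under it. Of 7408 genes tested, 127 were higher in anti-FLAG IP than in IgG control, which is 1.71% of the genes tested, and 5 were lower, which is 0.0675%. The test was edgeR's quasi-likelihood F test with the replicate pair as a block, and a call needed a Benjamini-Hochberg adjusted p under 0.05 and a change of at least 2-fold. At an unadjusted p under 0.05 there were 475 genes higher and 258 lower. The groups did not overlap, with all anti-FLAG IP libraries above all IgG control libraries, for 517 genes (6.98%), and with all below for 418 genes (5.64%). The 127 genes were higher in all 3 pairs, and in 126 of them the groups did not overlap. Their log2 fold changes ran from 1.01 to 3.97 with a median of 2.84, while the middle of all tested genes lay between -0.28 and 0.40. Together they held 53.9, 61.7 and 41.8% of all counts in anti-FLAG IP, against 10.8, 13.1 and 13.1% in IgG control. The median change of the 127 was 3.12 in pair 1, 3.30 in pair 2 and 2.19 in pair 3, so pair 3 showed the smallest separation. Leaving pair 3 out gave 214 genes higher and 50 lower, among which were 123 of the 127 and 4 of the 5. Total-count scaling turned the balance round, with 101 genes higher and 1761 lower, so that 5.42% of calls were upward, against 96.2% with TMM. DESeq2 called 184 higher and 65 lower, with 73.9% upward.

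**Figure D1:**
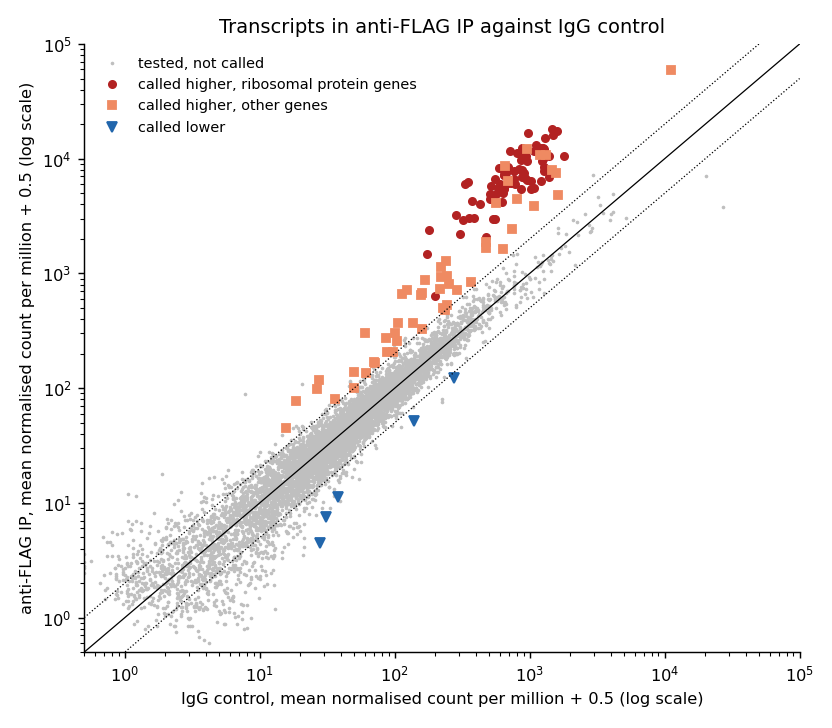
Mean normalised count of each of the 7408 tested genes in anti-FLAG IP (vertical, log scale) against IgG control (horizontal, log scale), with 0.5 added; the solid line marks equal levels and the dotted lines a 2-fold difference. The 76 ribosomal protein genes called higher form a cloud above the upper dotted line at the high end of the IgG levels, and the 5 genes called lower lie below the other dotted line.

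Ribosomal protein genes made up the bulk of the enriched set. Of 79 tested, 76 were higher in anti-FLAG IP, with log2 fold changes between 1.66 and 3.97, that is from 3.16-fold to 15.7-fold. For proteins of the small subunit, 32 of 34 rose, with a list median of 3.16 beside 0.04 for all genes. For proteins of the large subunit, 44 of 45 rose, with a median of 3.07. The medians by pair were 3.32, 3.67 and 2.39 for the small subunit and 3.42, 3.53 and 2.31 for the large, so in either subunit the third pair gave the smallest difference. On total counts the medians were 2.29 and 2.20, still with 32 and 43 genes called higher. Another 5 listed genes, RpS10a, RpS28a, RpL10Aa, RpL22-like and RpL37-2, were not tested, each with at most 16 counts in any library.

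RpL29, a protein of the large subunit (chromosome 2R, 21293768 to 21294404, plus strand, BDGP6.54), showed the largest change of all called genes. It had 5809, 10490.1 and 2485 normalised counts in anti-FLAG IP and 285, 391 and 364 in IgG control. The lowest anti-FLAG IP library, replicate 3, was still far above every IgG control library, and the log2 fold change was 3.97 ± 0.42 (SE, n = 3 pairs, edgeR adjusted p = 5.92e-05). RpL37-1 (X, 15137870 to 15139367) had 15248, 28819 and 6327 in anti-FLAG IP and 771, 1180.4 and 973 in IgG control, a log2 fold change of 3.89 ± 0.47. Of the small subunit, RpS21 (2L, 2856070 to 2857029) had 5709, 10679.6 and 1733 in anti-FLAG IP and 306, 378 and 312 in IgG control, a change of 3.86 ± 0.46. Replicate 2 was the highest and replicate 3 the lowest of the anti-FLAG IP libraries for each of these genes, and the IgG control libraries lay close together. RpS15Aa (3.69 ± 0.43), RpS27 (3.65 ± 0.40) and RpS24 (3.60 ± 0.42) were also among the largest changes, in the same order of replicates and with no overlap between the groups. In the annotation the span of another gene on the same strand overlaps that of RpS27, so its counts may not be its own alone. Among the genes with values given here, same-strand neighbours also overlap at least RpL22, eIF4A, eIF6, eEF2, eRF1, pAbp, Ddx56, Ip259, Fib, nop5, Nop60B, Act57B and CG2082. These overlaps are of gene spans, introns included, and overlap of exons was not measured.

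The members of the ribosomal protein set that did not pass were 3, and each has a closely related copy. RpL22 (X, 762560 to 765130) had 354, 183 and 282 normalised counts in anti-FLAG IP and 163, 104 and 137 in IgG control. The groups did not overlap, but its log2 fold change of 0.99 ± 0.19 lay just under the 2-fold minimum (edgeR adjusted p = 0.00658). RpS15Ab had 18.0, 12.4 and 7.33 in anti-FLAG IP and 10.4, 18.1 and 3.36 in IgG control. Its groups overlapped (log2 fold change 0.46 ± 0.72, edgeR adjusted p = 0.907), and it was far below its copy RpS15Aa in level. RpS19b, the copy of RpS19a known from germ cells, was counted 14, 39 and 27 times in anti-FLAG IP and not once in IgG control, where the floor of 3 counts corresponds to 0.128 to 0.194 normalised counts. Set against that floor in each control library, its mean of 3.09 ± 2.22 (SD, n = 3) was at least 19.3-fold higher, yet the test across all genes gave an adjusted p of 0.556 with edgeR. It was also at 0 in the 3 input libraries. RpS19a rose with the set, at 6934, 10432 and 3365 in anti-FLAG IP and 859, 929 and 819 in IgG control (2.85 ± 0.36). Copies did not move by the same amount elsewhere either: RpS5a had a log2 fold change of 2.97 ± 0.32 and RpS5b 2.13 ± 0.24, while RpL34b had 3.13 ± 0.29 and RpL34a 1.66 ± 0.19. The differences between copies were not tested, and reads shared by near-identical copies could have been counted for either.

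The subunits of eIF3, the large complex that brings the small ribosomal subunit to mRNA, rose almost as a whole. Of 13 tested subunit genes, 11 were higher, with a list median of 1.71. eIF3k had 717, 802 and 476 normalised counts in anti-FLAG IP and 76.3, 146 and 117 in IgG control. All anti-FLAG IP libraries were above all controls, and the log2 fold change was 2.57 ± 0.23 (edgeR adjusted p = 2.79e-05). eIF3g1 had 818, 899 and 435 in anti-FLAG IP and 136, 113 and 119 in IgG control (2.48 ± 0.22), and eIF3m had 894, 866 and 846 in anti-FLAG IP and 153, 146 and 205 in IgG control (2.39 ± 0.19). For eIF3m the anti-FLAG IP libraries were nearly level, unlike those of the ribosomal protein genes. eIF3l (2.37 ± 0.23), eIF3f1 (2.01 ± 0.21), eIF3h (1.75 ± 0.18), eIF3b (1.71 ± 0.25), eIF3e (1.68 ± 0.18), eIF3c (1.18 ± 0.18), eIF3a (1.13 ± 0.17) and eIF3i (1.02 ± 0.19) completed the called subunits. For eIF3a, a subunit of the core, the order of replicates was reversed, with 481, 392 and 728 in anti-FLAG IP and 201, 192 and 343 in IgG control, so that replicate 3 was the highest in either group. eIF3d1, whose mammalian relative can contact the cap, had 396, 611 and 854 in anti-FLAG IP and 297, 308 and 353 in IgG control, with an adjusted p of 0.0251 by edgeR but a log2 fold change of 0.89 ± 0.20, under the minimum. The loosely attached subunit eIF3j stood apart at 128, 130 and 190 in anti-FLAG IP and 128, 154 and 147 in IgG control. Its groups overlapped (0.04 ± 0.21, edgeR adjusted p = 0.973). On total counts 5 of the subunits were called and the list median was 0.84, while eIF3j fell below 0, at -0.83.

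Among the other initiation factors only 4 of 26 tested were higher, and the list median of 0.30 became -0.57 on total counts, with 2 genes called higher and 5 lower. eIF4A, the RNA helicase that opens the leader of mRNAs, had 7437, 9999 and 6659 normalised counts in anti-FLAG IP and 1165, 1616 and 1599 in IgG control. The groups were far apart (2.45 ± 0.33 on the log2 scale, edgeR adjusted p = 0.000237). pix, the fly relative of the recycling factor ABCE, had 1387, 1452 and 1027 in anti-FLAG IP and 209, 269 and 245 in IgG control (2.41 ± 0.21). The factors eIF1A (1.29 ± 0.17) and eIF2gamma (1.06 ± 0.19) were the other 2. At the low end was eIF6, which keeps large subunits from joining small ones, at 32.5, 48.9 and 42.0 in anti-FLAG IP and 44.1, 54.8 and 66.8 in IgG control, overlapping and not called (-0.42 ± 0.29, edgeR adjusted p = 0.716).

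Of 8 elongation and release factors with a symbol, eEF1gamma (1.57 ± 0.29) and eEF1beta (1.35 ± 0.23), both parts of the complex that reloads the elongation factor carrying tRNA, were higher, and the list median was 1.18. That median includes eEFSec (1.78 ± 1.38) and eEF1alpha2 (1.06 ± 3.22), not called and with at most 157 and 126 counts in any of the 6 libraries. On total counts the list median was 0.32 and none was called. eEF1gamma had 4009, 5418 and 5081 normalised counts in anti-FLAG IP and 1607, 1622 and 1607 in IgG control. eEF2, the translocation factor, had 7403, 6138 and 8064 in anti-FLAG IP and 2610.4, 2764 and 3431 in IgG control. Its groups did not overlap, but its adjusted p of 0.0522 with edgeR missed the threshold (1.30 ± 0.32). The termination factor eRF1 was under the fold minimum at 0.84 ± 0.18 (edgeR adjusted p = 0.0224), and its partner eRF3 was level, at 362, 320 and 434 in anti-FLAG IP and 340, 359 and 447 in IgG control. The list of nascent-chain and ribosome-associated factors was mixed, and also held the histone chaperone gene Nap1 and the nucleolar Non1. Of its 8 genes, 5 were higher, with a median of 1.91. Rack1, a scaffold protein of the small subunit, had 10361, 15157 and 7067 in anti-FLAG IP and 1066, 1369 and 1558 in IgG control (2.98 ± 0.39). Tctp (2.22 ± 0.32), the nascent-chain subunits Nacalpha (1.98 ± 0.23) and bic (1.86 ± 0.27), and the nucleolar GTPase Non1 (1.96 ± 0.20) were the others. The chaperone Hsc70-4, with 4742, 5669 and 4267 in anti-FLAG IP and 3726, 4327 and 4291 in IgG control, overlapped and was not called.

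**Figure D2:**
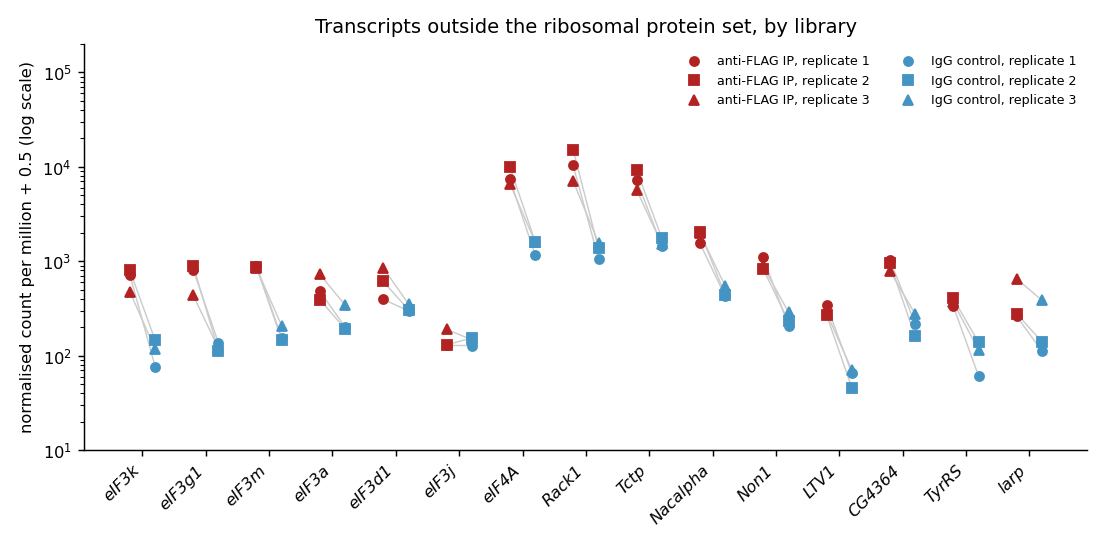
Normalised counts plus 0.5 (log scale) of 15 genes outside the ribosomal protein set, with the 3 anti-FLAG IP libraries (red) left of the 3 IgG control libraries (blue) and a grey line joining each same-numbered pair. All genes shown except eIF3j lie higher in anti-FLAG IP in every pair, and for larp the highest IgG control library exceeds 2 of the anti-FLAG IP libraries.

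The transcript of the tagged protein itself passed the adjusted p but not the fold minimum. larp (chromosome 3R, 28318162 to 28336440, minus strand) had 262, 279 and 654 normalised counts in anti-FLAG IP and 112, 140 and 387 in IgG control. Every pair went the same way, by 1.22, 0.99 and 0.76 on the log2 scale, but the groups overlapped because both libraries of replicate 3 were high. The log2 fold change was 0.99 ± 0.18 (edgeR adjusted p = 0.00453). Input libraries showed the same excess in replicate 3, at 5333 counts against 1971 and 2616. These values bear on the transcript and do not show how much Larp protein was recovered. None of the 8 tested genes of the La, La-related and poly(A)-binding list was called, with a median of 0.20, and of -0.66 on total counts. The poly(A)-binding protein gene pAbp had 2069, 1592 and 2976 in anti-FLAG IP and 1417, 1915 and 2204 in IgG control, with overlap (0.24 ± 0.27). The lowest of the list was Larp7, at 50.4, 62.4 and 45.6 in anti-FLAG IP and 86.5, 72.4 and 70.0 in IgG control, where no library overlapped but the adjusted p was 0.535 with edgeR.

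Outside the lists of the translation machinery, 21 named genes were higher, and several are known from the making of ribosomes. LTV1, a factor of small-subunit assembly (2R, 10836570 to 10838727), had 344, 270.5 and 285 normalised counts in anti-FLAG IP and 64.7, 45.3 and 70.3 in IgG control. This was the largest change of the group, 2.34 ± 0.21 on the log2 scale (edgeR adjusted p = 2.73e-05). The RNA helicase Ddx56 had 300, 222 and 296 in anti-FLAG IP and 53.1, 94.9 and 109.7 in IgG control (1.71 ± 0.25). RpL24-like, whose yeast relative takes part in large-subunit assembly, changed by 1.63 ± 0.21, and the nucleolar GTPase gene Ns2 by 1.51 ± 0.27. A pair of core proteins of the box C/D snoRNPs, which guide methylation of rRNA, also passed. These were Fib, the methyltransferase fibrillarin, at 184, 213 and 215 in anti-FLAG IP and 64.9, 104 and 123 in IgG control (1.12 ± 0.21), and nop5 (1.03 ± 0.17). The other 5 snoRNP genes tested did not pass, and their list median of 0.35 became -0.52 on total counts.

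The remaining genes of this group were not sorted by role. TyrRS, the synthetase that charges tyrosine tRNA, had 336, 404 and 368 normalised counts in anti-FLAG IP and 60.8, 139 and 114.7 in IgG control (1.89 ± 0.22). It was the only 1 of 31 tested aminoacyl-tRNA synthetase genes to be called; the list median was 0.23, and -0.64 on total counts. Mpcp2, a mitochondrial phosphate carrier, had 1689, 2006 and 1311 in anti-FLAG IP and 420, 530.2 and 483 in IgG control (1.79 ± 0.23). CG4364 (2.13 ± 0.22), TTLL12 (2.09 ± 0.31), Ip259 (2.06 ± 0.18), CG12728 (1.75 ± 0.41) and CG1774 (4.28-fold, edgeR adjusted p = 0.000155) also rose, and the co-chaperone gene stv did so at 14.4, 14.0 and 201 in anti-FLAG IP and 6.65, 7.12 and 40.3 in IgG control. stv was the gene of the 127 whose groups overlapped, since both libraries of replicate 3 were high (1.49 ± 0.34, edgeR adjusted p = 0.0359). Past the 12 largest, Fib, nop5, Tom7 (1.35), CG1354 (1.30), CG9330 (1.25), vkg (1.21, a collagen IV chain), shu (1.21, a co-chaperone of the piRNA pathway), Grx3 (1.21) and O-fut1 (1.01) made up the rest and are named after their values were seen. For 3 of the 21 the annotation places another called gene within 1000 bases: the whole 1259-base span of Ip259, introns included, lies within that of RpS27A on the same strand, CG1774 ends 73 bases from RpL6 on the other strand, and O-fut1 ends 12 bases from eIF3m on the other strand. Exons of Ip259 cover 1142 bases and those of RpS27A 592, so part of the Ip259 exon sequence lies outside that of RpS27A. How many exon bases they share was not measured. Reads from shared bases cannot be told apart if the authors' counting split or shared such reads. The other 8 of the 127 had identifiers that matched no symbol and are counted without a name. All lists were drawn by symbol, so these 8 features entered none, and the list tallies can miss members. The 8 include the most counted feature of anti-FLAG IP, with 54709, 65430.5 and 58076 normalised counts in anti-FLAG IP and 9984, 11895 and 11814 in IgG control (2.40 ± 0.51, edgeR adjusted p = 0.0177).

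Another 11 genes had an adjusted p under 0.05 in edgeR and a rise of less than 2-fold, and are named here after their values were seen. They were larp, RpL22, Lsm12a (0.98), Nap1 (0.95), eIF2alpha (0.95), eIF3d1, Cand1 (0.88), Sec61alpha (0.87), eRF1, Karybeta3 (0.78) and CG9281 (0.75). Nap1, a histone chaperone, had 1319, 1464 and 1573 normalised counts in anti-FLAG IP and 631, 751 and 883 in IgG control. Its groups did not overlap (0.95 ± 0.22, edgeR adjusted p = 0.0324).

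The other gene groups of the ovary had few calls or none. None of 72 mitochondrial ribosomal protein genes was called, with a list median of 0.06, although 76 of 79 genes for the cytoplasmic ribosome were. The spread among them was wide, with mRpL33 highest at 27.0 ± 2.58 in anti-FLAG IP and 11.9 ± 4.59 in IgG control (mean ± SD, n = 3 each). That gene did not overlap between groups, but its adjusted p was 0.34 with edgeR. None of 32 proteasome genes was called (median -0.18), none of 32 complex I genes (0.02) and none of 17 genes of the TOR pathway (0.06). No call fell among the 21 listed piRNA pathway genes (0.13), 23 listed chaperone genes (0.20) and 10 actin and tubulin genes (-0.01). The co-chaperone genes shu and stv, called higher above, were in none of these lists. The listed maternal transcripts that set up the axes of the egg were level, with a median of 0.06 and no call among 18. The gene nanos, given above, was not in this list. The transcript osk, whose protein founds the germ plasm, changed by -0.26 on the log2 scale (edgeR adjusted p = 0.789), and the most positive of the list, tud, had 452, 246 and 219 in anti-FLAG IP and 177, 172 and 232 in IgG control, with overlap. The 16 tested germline differentiation and meiotic genes had a median of -0.06. Yolk, vitelline membrane and chorion genes had a median of -0.19 with no call among 25. Of these, 10 were lower in all pairs, beside 1147 of the 7408 genes tested, and 5 lay below IgG control without overlap, beside the 5.64% of all genes. The chorion gene Cp19 had 526, 688 and 813 in anti-FLAG IP and 1326, 1051 and 1458 in IgG control, or -0.93 ± 0.22 on the log2 scale (edgeR adjusted p = 0.048), under the fold minimum. On total counts every list of this paragraph had a median below 0, for instance -0.80 for the mitochondrial ribosomal protein and the maternal lists, where the median of all genes was -0.82.

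**Figure D3:**
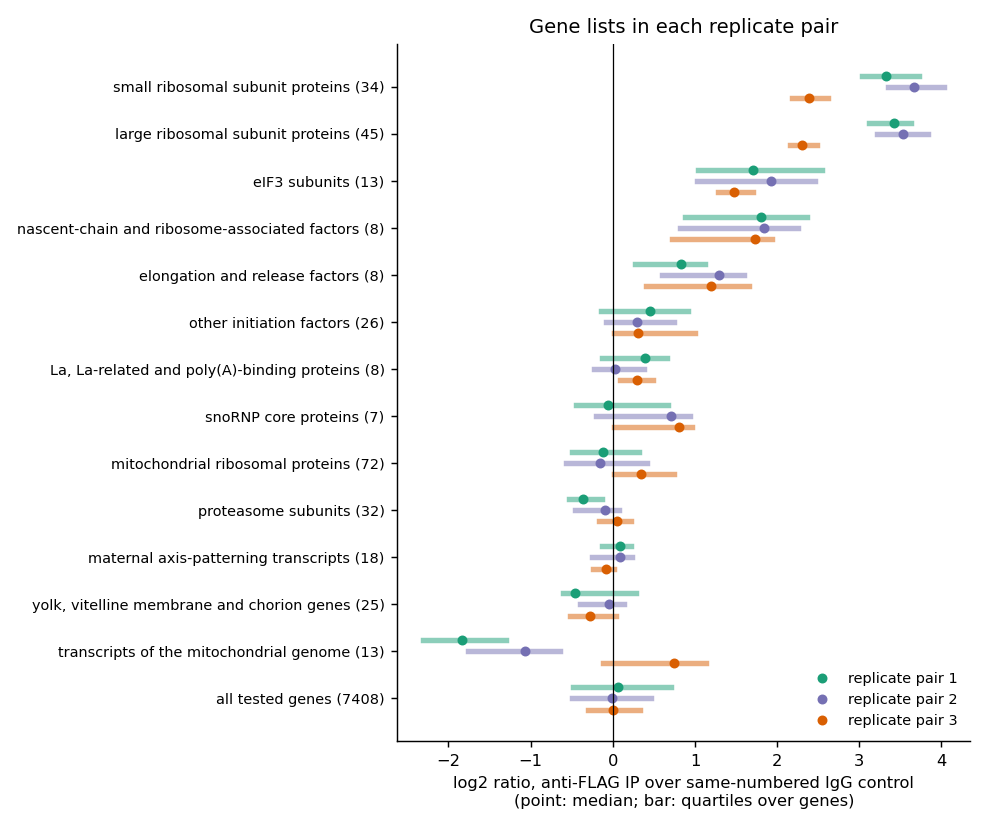
Log2 ratio of anti-FLAG IP over the same-numbered IgG control library for the genes of 13 lists and for all tested genes, by replicate pair; points are medians over genes, bars run between the quartiles, and the number of tested genes is in brackets. The 2 ribosomal protein lists and eIF3 stand to the right in all 3 pairs, while the mitochondrial transcripts are at -1.83 and -1.07 in pairs 1 and 2 and at 0.74 in pair 3.

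The 5 genes that were lower in anti-FLAG IP than in IgG control encode muscle proteins, a metabolic enzyme and mucins. zormin, a protein of the muscle sarcomere (chromosome 3L, 2117466 to 2151700, minus strand), had 1.69, 1.01 and 9.10 normalised counts in anti-FLAG IP and 43.3, 16.3 and 22.9 in IgG control. No library overlapped, and the log2 fold change was -3.32 ± 0.76 (edgeR adjusted p = 0.0332), resting on 16, 7 and 113 counts in anti-FLAG IP. TpnC73F, a troponin C of muscle (3L, 17046063 to 17048390), had 6.12, 4.04 and 10.9 in anti-FLAG IP and 33.2, 28.6 and 30.2 in IgG control, again without overlap (-2.23 ± 0.51, edgeR adjusted p = 0.0332). Gs2, a glutamine synthetase (X, 11422832 to 11430197), had 13.6, 7.51 and 10.9 in anti-FLAG IP and 59.8, 27.1 and 25.9 in IgG control (-1.74 ± 0.42, edgeR adjusted p = 0.048). The mucin-related gene Mur11Da (X, 12967888 to 12970056) had 38.5, 32.3 and 83.6 in anti-FLAG IP and 94.6, 58.2 and 265 in IgG control. Its groups overlapped, since replicate 3 was high in either group, but each pair was lower in anti-FLAG IP (-1.28 ± 0.24, edgeR adjusted p = 0.00704). Muc4B, another mucin gene (X, 4244095 to 4246139), had 85.0, 115.03 and 168 in anti-FLAG IP and 209, 210.5 and 409 in IgG control, without overlap (-1.15 ± 0.19, edgeR adjusted p = 0.00217). Fitting without the block left 1 of the 5, a filter of 50 counts in 3 libraries left 2, and leaving out pair 1, 2 or 3 gave 9, 20 and 50 genes lower. A further 49 genes were lower by 2-fold or more in every pair without being called, 22 of them with a count of 0 in an anti-FLAG IP library. The genes CG43134 (-0.94), tsr (-0.89) and lncRNA:CR42862 (-0.89), named after their values were seen, passed the adjusted p with less than a 2-fold fall, as did Cp19.

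Markers of the muscle sheath around the ovary moved with the muscle genes. The 6 tested of the 7 markers, Mhc, Mlc2, Act57B, up, sls and Mf, all had a log2 fold change below 0, with a median of -1.07, and none was called. In their summed level, given above, the groups overlapped through replicate 3 of anti-FLAG IP and replicate 2 of IgG control. Scaled together with the input libraries, the sums were 144, 217 and 415 in anti-FLAG IP, 714, 273 and 601 in IgG control, with 169, 255 and 367 for input, so that anti-FLAG IP lay near input and replicates 1 and 3 of IgG control lay above it. In normalised counts Act57B, a muscle actin, had 48.6, 57.2 and 98.7 in anti-FLAG IP and 174, 88.2 and 149 in IgG control (-1.01 ± 0.27, edgeR adjusted p = 0.099). Of the fat body markers, apolpp was counted 1196, 647 and 235 times in anti-FLAG IP and 10127, 2458 and 563 times in IgG control, with an adjusted p of 0.242 by edgeR. The input libraries held 374, 404 and 197 counts of apolpp, and on the same joint scale the fat body markers summed to 173, 131 and 21.5 in anti-FLAG IP, 645, 173 and 45.7 in IgG control, with 38.5, 33.8 and 16.4 for input, the lowest in every number. Lower in anti-FLAG IP than in IgG control does not here mean lower than in the lysate, a comparison that was not tested. Whether the difference came from less of this RNA in anti-FLAG IP or from more of it in IgG control was not tested. The part of muscle tissue in the lower genes was not tested either. In the input libraries zormin had 15, 81 and 47 counts.

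**Figure D4:**
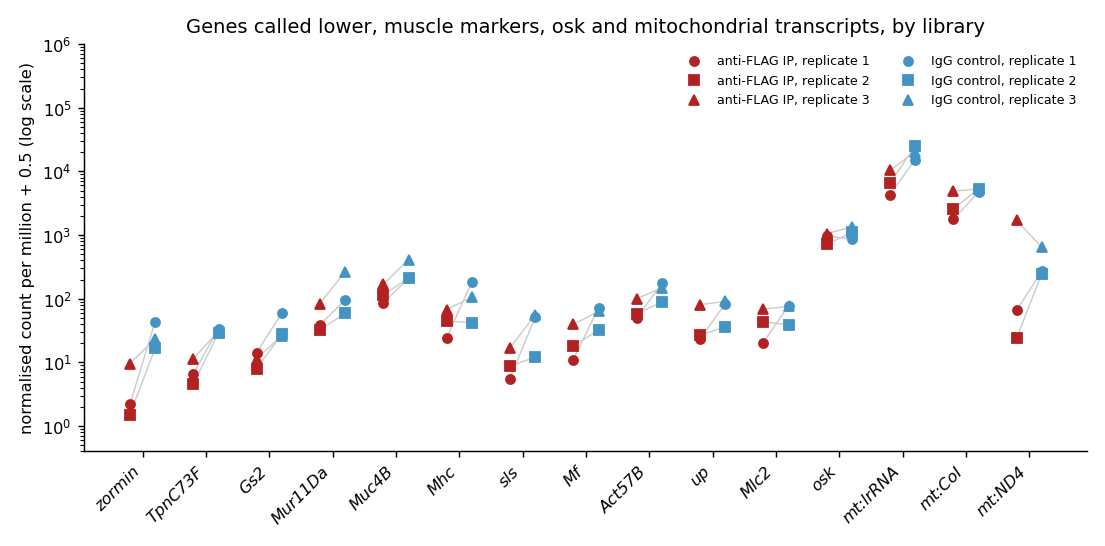
Normalised counts plus 0.5 (log scale) of the 5 genes called lower, 6 muscle sheath markers, osk and 3 mitochondrial transcripts, with the 3 anti-FLAG IP libraries (red) left of the 3 IgG control libraries (blue) and a grey line joining each same-numbered pair. The 5 called genes fall in every pair, and mt:ND4 is lower in anti-FLAG IP in pairs 1 and 2 and higher in pair 3.

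Transcripts of the mitochondrial genome were lower in pairs 1 and 2 but not as a group in pair 3. They made up 0.70, 0.81 and 2.62% of counts in anti-FLAG IP and 3.83, 5.18 and 4.80% in IgG control. Of 13 tested, 12 were lower in pair 1, 11 in pair 2 and 6 in pair 3. None was called, and the list median was -0.95. The large rRNA of the mitochondrion, mt:lrRNA, had 4295, 6527 and 10333 normalised counts in anti-FLAG IP and 15300.0, 24922 and 20290.2 in IgG control. Its groups did not overlap (-1.58 ± 0.41), and the adjusted p was 0.0855 with edgeR. mt:CoI, a subunit of cytochrome oxidase, had 1756, 2545 and 4870.5 in anti-FLAG IP and 4742, 5343 and 5301 in IgG control, with replicate 3 of anti-FLAG IP inside the range of the controls (-0.88 ± 0.34). mt:ND4 had 65.0, 23.4 and 1698 in anti-FLAG IP and 269, 248 and 642 in IgG control. Its log2 ratio was -2.04 in pair 1 and -3.38 in pair 2, and above 0 in pair 3.

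The feature with most counts in IgG control had an identifier of 6 digits that matched no symbol. It had 40044, 36806 and 22186 counts in anti-FLAG IP and 1113012, 420887 and 62072 in IgG control, which was 0.314, 0.323 and 0.160% of counts in anti-FLAG IP and 7.89, 2.40 and 0.549% in IgG control. In normalised counts it had 4223, 5312 and 1787 in anti-FLAG IP and 58719, 17934 and 4016 in IgG control. The groups overlapped, since replicate 3 of IgG control lay below replicates 1 and 2 of anti-FLAG IP, although each pair was lower in anti-FLAG IP. The log2 fold change was -2.21, and the adjusted p of 0.0547 with edgeR missed the threshold. The input libraries held 4777, 899 and 811 counts of it. Without it, a setting chosen after seeing the data, 128 genes were higher and 5 lower. Of the 5 features most counted in IgG control the chorion gene Cp38 was the remaining one with a symbol besides mt:lrRNA and mt:CoI, at 2968, 4205 and 3211 normalised counts in anti-FLAG IP and 4083, 4134 and 4189 in IgG control, with overlap (-0.27, edgeR adjusted p = 0.848).

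A few genes were counted in every anti-FLAG IP library and in no IgG control library. With at least 10 counts in each anti-FLAG IP library and 0 in all IgG control libraries there were 6 genes, of which 5 passed the filter, and they could pass only through their anti-FLAG IP counts. Beside RpS19b these were CG15484, counted 38, 11 and 25 times, CG2082, counted 11, 19 and 33 times, CG13405, counted 22, 14 and 19 times, CG31300, counted 11, 15 and 10 times, and p38c, counted 10, 31 and 18 times. Input libraries held 28, 23 and 4 counts of CG15484, 22, 89 and 38 of CG2082 and 0, 0 and 28 of p38c. They held 0 of CG13405 and CG31300. Against the floor of 3 counts per control library the genes CG15484, CG2082, CG13405, CG31300 and p38c were at least 15.8-fold, 13.7-fold, 12.2-fold, 8.60-fold and 14.5-fold higher. None was called, with adjusted p of 0.609, 0.646, 0.672 and 0.644 in edgeR for CG15484, CG2082, CG13405 and p38c. Counts at this level were patchy in both groups: among the genes tested, 252 had a 0 in an anti-FLAG IP library and at least 20 counts in another of that group, and 721 did so within IgG control, while 0 of the called genes did.

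The enriched transcripts were short and abundant. The union of exons of the 119 annotated genes called higher had quartiles of 807, 1142 and 1621 bases, against 1353, 2182 and 3679 bases for all 7231 annotated genes tested. In the shortest of 10 length bins, up to 894 bases, 5.23% of genes were called higher, and in the longest, from 6050 bases, 0.139% were. Without the ribosomal protein genes these shares were 0.580% and 0.139%, and the highest share, 1.51%, lay in the fourth bin, from 1515 to 1817 bases. In IgG control the 127 genes had a median of 634 normalised counts, against 39.3 for all genes tested, and 101 of them lay in the highest of 10 level bins. In this bin 13.6% of genes were called higher, and 4.05% without the ribosomal protein genes. The median change of all genes was 0.0042 in the shortest length bin and 0.23 in the longest. The part of length and level in the calls was not tested.

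**Figure D5:**
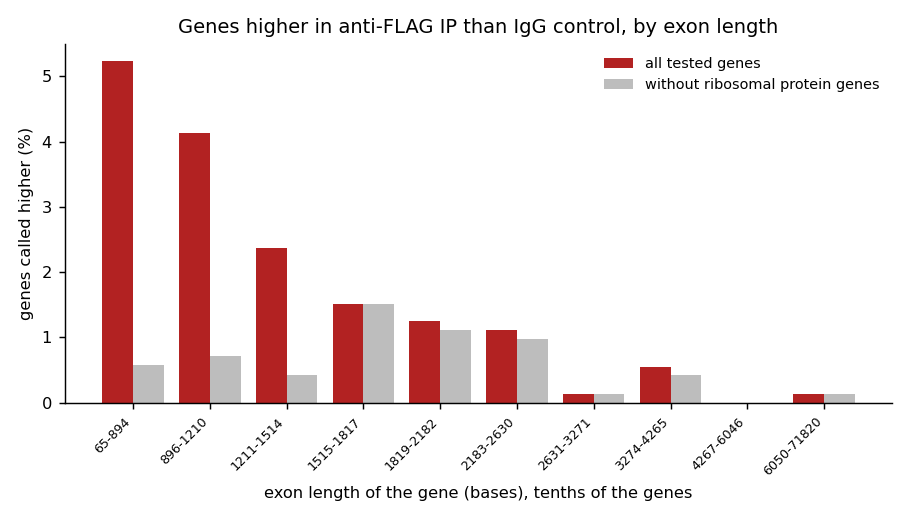
Percent of genes called higher in anti-FLAG IP than in IgG control in 10 bins of exon length (bases, short to long), for all tested genes (red) and without the ribosomal protein genes (grey). The red bars fall steeply across the bins, and the grey bars stay at or below 1.51% in every bin.

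The libraries differed in how far a few genes dominated them. The 50 most counted genes of each library took 40.1, 46.7 and 31.6% of counts in anti-FLAG IP and 23.8, 21.5 and 19.5% in IgG control. The means were 39.5 ± 7.59% in anti-FLAG IP and 21.6 ± 2.16% in IgG control (SD, n = 3 each), with no overlap and a difference of 17.9 percentage points. An exact two-sided permutation test gave p = 0.1, the smallest value that 3 against 3 libraries allow, and the sign-flip test over the pairs gave its smallest value of 0.25.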

How the data were processed

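RNA was purified with TRIzol, treated with DNase, selected for poly(A), fragmented for 13 min and made into strand-specific libraries. The authors deposited raw read counts, whole numbers per gene with no normalisation. HISAT2 2.1.0, featureCounts 1.4.6 and the dm6 build are named in the submitters' processing notes; the annotation release and strand setting are not given in the sources used here, so reads of overlapping genes may not be separable.

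Symbols matched 16647 of 17024 features; the other 377 stayed in totals and tests and held 5.73 to 12.5% of counts in these libraries. Positions and exon lengths came from BDGP6.54, Ensembl release 115, which has the coordinates of dm6. The floor of 3 counts was 0.171 to 0.265 CPM, and covers counting error only.

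The 6 libraries were fitted with edgeR 4.0.16 (R 4.3.3): filterByExpr, TMM, the robust quasi-likelihood test with the replicate number as a block, and Benjamini-Hochberg adjustment over 7408 genes. The labels give the numbers. Deviations from group means correlated at 0.186, 0.162 and 0.408 within numbers over 6840 genes and at -0.249 to 0.0623 between numbers. Such deviations sum to 0 for each gene within a group, so the values within and between numbers are not independent. The pairing therefore rests on the numbers, and a shared lysate within a number was not tested. Standard errors came from the F statistic. Ratios within pairs used a pseudocount of 0.5 normalised counts. DESeq2 1.42.0 and other alternatives are given at the end. The procedure was tested on simulated data. The chi-square between replicates of a group was at least 61.2 per degree of freedom, so none was a copy. Input libraries entered no test.

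Genes named were larp, the 8 called genes with the largest rise, the 12 largest outside the translation lists, every lower gene, the extremes of each list with all members of short lists, 4 ribosomal protein genes, up to 5 genes at 0 in IgG control and the 5 most counted in IgG control; of these a called gene with no symbol was counted and not named. Of the selected genes, 1 is not reported here. Any other gene is marked as such. The lists, markers and rule were chosen with earlier results of these data known.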

Additional observations from a re-analysis of the deposited data

How the results depend on the processing

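All 127 genes called higher kept their sign wherever they were tested, and 98 were called under every alternative other than the one that drops features with no symbol. The fit with no replicate block called 120 genes higher (119 of the 127) and 1 lower. The count of lower genes was 1761 on total counts, 65 with DESeq2, 15 with no filter, 2 with at least 50 counts in 3 libraries and 9 with no fold minimum. Leaving out a pair gave 133 to 214 genes higher and 9 to 50 lower; the 214 and 50 came without replicate 3. On total counts 101 genes were higher, 99 of them among the 127. The difference in the share of the most counted genes was 2.56 points for 10 genes (exact p = 0.3) and 26.5 points for 100.

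Some genes that were not called changed sign, and the cause was not tested. On total counts, where the median gene was at -0.82, the log2 fold changes were RpS15Ab -0.40, eIF3j -0.83, Hsc70-4 -0.62, Prosalpha2 -0.59, gammaTub23C -0.038, tud -0.28, Yp1 -0.25, eEF1delta -0.47, eRF1 -0.029, Larp4B -0.57, La -0.70, pAbp -0.62, Cbp80 -0.39, Cbp20 -0.84, Nnp-1 -0.50, Nop60B -0.52 and Gar1 -0.073. Cbp20 was also at -0.085 without the block, -0.011 with RLE factors, -0.024 with upper-quartile factors and -0.0098 with DESeq2. Without the block Rpt3R was at 0.43 and eEF1alpha2 at -0.48. Leaving out each pair in turn gave ranges of -0.50 to 0.61 for Cbp20, -0.12 to 0.19 for eIF3j, -0.0997 to 0.029 for eRF3, -2.10 to 0.53 for Hsp67Bc, -0.54 to 2.55 for eEF1alpha2 and -0.63 to 0.40 for Nop10. The look at pyrimidine runs at transcript starts was not run, since no genome of this build was used here. Counts of about 10 per library limit what can be said of genes at 0 in IgG control.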
